A study of Mus musculus with 10 samples.

Results

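The hedgehog agonist SAG and the hedgehog antagonist cyclopamine were each set against vehicle in cultured mouse Wolffian ducts, and the genes that both moved to the same side of vehicle were described. For every probe set the vehicle mean was subtracted from the average of the SAG mean and the cyclopamine mean, so that each compound had equal weight whatever its number of arrays. A named probe set counted as same-side where both treated means lay above the vehicle mean, or both below it. Of 22206 probe sets 19572 carried a gene symbol, and 11430 of these (58.4%) were same-side, 6035 higher and 5395 lower than vehicle, against 8142 on opposite sides. Both differences subtract the same 3 vehicle arrays, so this share is a description and no test was made of it. The account below turns on the 50 same-side genes in which the average itself passed the test.

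Ducts were dissected from mouse fetuses (16.5 days post coitum) and kept for 72 h in culture at an air-liquid interface. Vehicle ducts (3 arrays) received culture medium, SAG ducts (4 arrays) received 0.5 µM of the Smoothened agonist, and cyclopamine ducts (3 arrays) received 25 µM of the hedgehog inhibitor. The labels name no strain, fetal sex or solvent, so a compound and its solvent cannot be told apart, and the doses of the compounds differ. The sample titles name the tissue pronephros while the growth protocol names the Wolffian duct. The series calls its arrays biological replicates, without saying how many embryos each held.

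Hedgehog ligands bind the receptor PTCH1, which releases Smoothened from inhibition and lets GLI transcription factors switch on target genes, among them Gli1, Ptch1 and Hhip. SAG binds and activates Smoothened, whereas cyclopamine binds and blocks it. The Wolffian duct is an epithelial tube wrapped in mesenchyme that gives rise to the epididymis, vas deferens and seminal vesicle, and part of its mesenchyme becomes smooth muscle.

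The pathway's own targets went opposite ways and so checked the labels. On the log2 signal scale, Gli1 was at 12.63, 11.67 and 11.43 on the vehicle arrays, at 13.41, 13.41, 13.61 and 13.24 with SAG, and at 4.56, 5.37 and 4.99 with cyclopamine. Every SAG array lay above, and every cyclopamine array below, all vehicle arrays. Ptch1 differed from vehicle by 1.56 with SAG and by -4.12 with cyclopamine, and Hhip by 4.55 and -5.95. Array medians ranged from 7.55 to 7.70. Among marker lists, SAG replicate 1 stood apart by steroidogenic gonad and adrenal genes (mean of 1.88 above the vehicle mean, against -0.20 to 0.10 on the other SAG arrays), and cyclopamine replicate 2 by inflammation genes (2.41) and endothelial genes (-2.07).

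The average of the compounds differed from vehicle at 70 of 22206 probe sets (0.315%) at a threshold of 0.05 on limma's Benjamini-Hochberg adjusted p, of which 60 were lower (0.27% of all probe sets) and 10 were higher (0.045%). Without adjustment, 2409 probe sets (10.8%) had a p under 0.05. Of the 70, 67 were named, and 50 of those were same-side: 47 fell and 3 rose. The 47 genes that fell included receptors and channels (Nmur2, Trpc4, Gria1), enzymes (Entpd1, Maob, Galnt16) and smooth-muscle contractile genes (Actg2, Cnn1, Myh11). Their median change was -0.89 with SAG, -1.78 with cyclopamine and -1.41 for the average, on a log2 scale on which the medians over all probe sets were 0.01, 0.02 and 0.01. In 35 of the 50 genes, 32 lower and 3 higher, no treated array overlapped the range of the vehicle arrays. Over all probe sets such separation occurred in 2.87%, with 1.52% wholly below vehicle and 1.35% wholly above. The 50 genes were chosen by their difference from vehicle on these same arrays. Separation in them, here and gene by gene below, follows in part from that choice and is no added support. The ducts were profiled whole, so fewer cells of a type and less RNA per cell cannot be told apart.

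**Figure D1:**
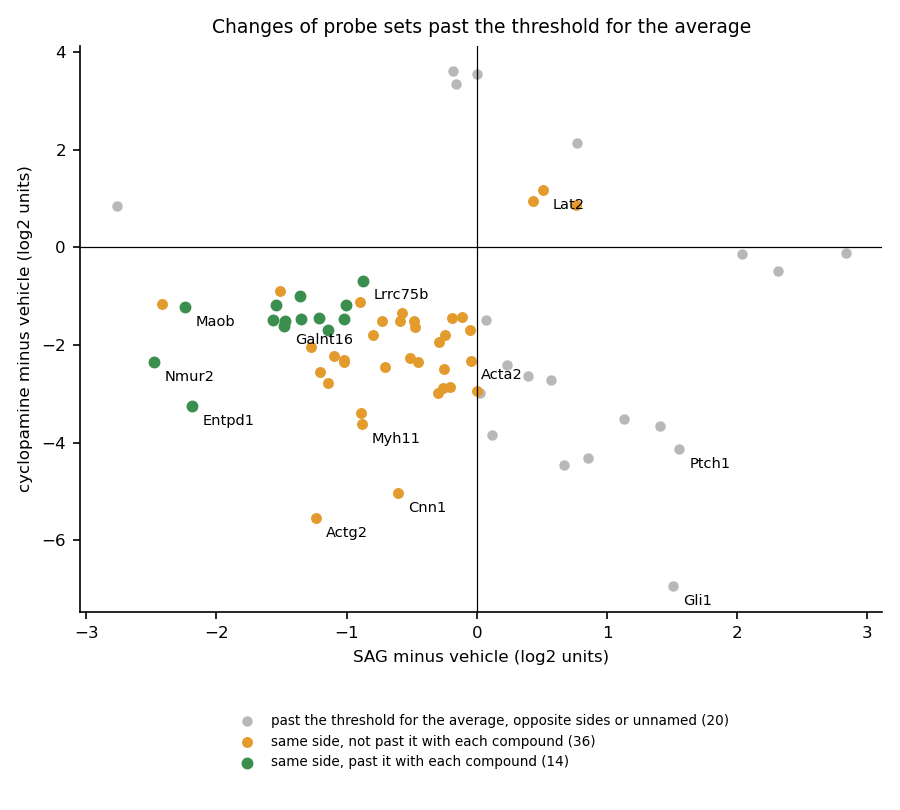
Change with SAG (x axis) against change with cyclopamine (y axis), each as a group mean minus the vehicle mean in log2 units, for the 70 probe sets past the threshold for the average; green points are the 14 genes past it with each compound, orange points the other 36 same-side genes and grey points the 20 probe sets on opposite sides or unnamed. Both axes subtract the same vehicle arrays; 47 same-side genes lie at the lower left and 3 at the upper right.

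Each compound was also tested alone. SAG lowered 62 probe sets (0.279%) and raised 100 (0.45%), and cyclopamine lowered 654 (2.95%) and raised 482 (2.17%). Among the 50 same-side genes, 48 passed the test with cyclopamine and 16 with SAG: 34 with cyclopamine alone, 2 with SAG alone (Brinp3 and Trmt9b), 14 with each, and none with neither. The 50 were chosen by the average on these same arrays, which a large change with 1 compound can carry. These counts therefore follow in part from that choice. Over all probe sets, named or not, 64 passed with each compound, 50 of them in opposite directions and 14, all named, in the same direction. All 14 fell. No gene rose with each compound by limma's adjusted p, whereas at an unadjusted p under 0.05 for each, 279 named probe sets were lower with both and 168 higher with both, a balance that turned to 179 lower and 316 higher with arrays centred on their medians. The median change of the 14 genes was -1.41 with SAG and -1.47 with cyclopamine.

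Genes for receptors, channels and their partners made up 5 of the 14. Nmur2 encodes a receptor for the peptide neuromedin U. Its log2 signal was 7.65, 7.71 and 8.26 on the vehicle arrays, 5.02, 5.33, 5.11 and 6.13 with SAG, and 5.01, 5.19 and 6.37 with cyclopamine. The highest treated array thus lay more than 1 log2 unit below the lowest vehicle array. Nmur2 fell by 2.48 ± 0.35 (moderated SE; 5.57-fold, adjusted p = 0.0120) with SAG and by 2.35 ± 0.38 (5.10-fold, adjusted p = 0.00631) with cyclopamine, and the average differed by -2.41 ± 0.32 (adjusted p = 0.0133). Between the compounds the difference was -0.12 with a 95% interval from -0.90 to 0.65. Among the 33 same-side genes with a promoter in the RefSeq table, Nmur2 was the only gene whose promoter held the letters of the GLI consensus GACCACCCA on either strand. They occurred in 1 of 48 promoters of these genes and in 83 of 32851 promoters in all (0.253%). The bases upstream of its start are shown for that match, with the 9 matching letters, read on the opposite strand, in capitals (GRCm38.p6, minus strand, chr11:56040988-56041237, match starting 72 bases before the start):

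Nmur2: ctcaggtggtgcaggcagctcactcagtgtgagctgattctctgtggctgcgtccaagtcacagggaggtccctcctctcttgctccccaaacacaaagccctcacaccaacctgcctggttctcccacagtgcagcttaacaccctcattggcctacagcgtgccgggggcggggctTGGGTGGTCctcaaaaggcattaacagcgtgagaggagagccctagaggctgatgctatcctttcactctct

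Trpc4, a cation channel subunit, was at 7.36, 8.51 and 7.32 with vehicle, at 6.18, 6.39, 6.32 and 6.14 with SAG, and at 6.36, 6.25 and 6.07 with cyclopamine. All 7 treated arrays lay between 6.07 and 6.39, below every vehicle array, of which replicate 2 was the highest. The change was -1.47 ± 0.25 with SAG (adjusted p = 0.0283) and -1.50 ± 0.27 with cyclopamine (adjusted p = 0.0111). Gria1, a subunit of AMPA-type glutamate receptors, was at 9.41, 9.48 and 8.78 with vehicle, at 7.96, 8.09, 7.99 and 8.02 with SAG, and at 8.01, 7.39 and 7.97 with cyclopamine, without overlap. It fell by 1.21 ± 0.20 (adjusted p = 0.0228) and by 1.44 ± 0.21 (adjusted p = 0.00473). Rgs7bp, which anchors a class of G-protein regulators at the membrane, was at 8.31, 8.25 and 7.85 with vehicle, 6.57, 7.06, 6.46 and 7.06 with SAG, and 6.73, 6.96 and 6.32 with cyclopamine. Here too every treated array was below every vehicle array, and the changes were -1.35 ± 0.21 (adjusted p = 0.0190) and -1.47 ± 0.23 (adjusted p = 0.00557). Cacna1d, an L-type calcium channel subunit that, like Cmtm5, Ahr and Lrrc75b below, is named because it completes the 14 after their values were seen, fell by 1.02 ± 0.19 (adjusted p = 0.0383) and by 1.47 ± 0.20 (adjusted p = 0.00314). Its vehicle arrays ranged from 9.07 to 9.48 and its treated arrays from 7.65 to 8.55.

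Of the 14 genes, 3 encode enzymes. Entpd1, an ectonucleotidase that breaks down extracellular ATP and ADP, was at 11.95, 12.71 and 12.03 with vehicle, at 9.51, 10.33, 10.24 and 10.09 with SAG, and at 9.61, 7.79 and 9.52 with cyclopamine. The groups did not overlap, and cyclopamine replicate 2 was the lowest array. Endothelial markers were lowest on that array too: the mean of 9 genes was -2.07 there, -0.31 and -1.18 on the other cyclopamine arrays, 0.00 to 0.46 with SAG and -0.58 to 0.44 with vehicle, and their part in the change of Entpd1 was not tested. Without cyclopamine replicate 2, Entpd1 still differed from vehicle by -2.66 with cyclopamine (adjusted p = 0.000728). Entpd1 fell by 2.18 ± 0.41 with SAG (4.55-fold, adjusted p = 0.0412) and by 3.26 ± 0.44 with cyclopamine (9.55-fold, adjusted p = 0.00290). Maob, the monoamine oxidase of the outer mitochondrial membrane, was at 11.76, 11.96 and 12.33 with vehicle, at 9.28, 10.24, 9.98 and 9.61 with SAG, and at 10.85, 10.43 and 11.09 with cyclopamine. All SAG arrays lay below all cyclopamine arrays, and these below all vehicle arrays. The change was -2.24 ± 0.25 with SAG (adjusted p = 0.00374) and -1.23 ± 0.26 with cyclopamine (adjusted p = 0.0245), and Maob was the only one of the 14 in which the compounds differed from each other (difference of -1.01, 95% interval from -1.55 to -0.47, adjusted p = 0.0220). Galnt16, which starts mucin-type O-glycosylation by adding N-acetylgalactosamine, was at 10.57, 10.83 and 10.86 with vehicle, at 9.61, 9.31, 8.86 and 9.32 with SAG, and at 8.84, 9.23 and 9.39 with cyclopamine. The treated groups overlapped each other and lay wholly below vehicle. Galnt16 fell by 1.48 ± 0.19 with SAG (adjusted p = 0.00800) and by 1.60 ± 0.21 with cyclopamine (adjusted p = 0.00253), with a difference between the compounds of 0.12 (95% interval from -0.30 to 0.55). Of the 33 same-side genes with a promoter to search, only Galnt16 held the AP-1 letters TGACTCA, searched on both strands. They occurred in 1 of 48 promoters of these genes (2.08%) and in 5.2% of all promoters. Galnt16 has more than 1 promoter in the RefSeq table, and the match lies in 1 of them. The match, in capitals, lies within that promoter and starts 161 bases before its transcription start (GRCm38.p6, plus strand, chr12:80518552-80518801):

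Galnt16: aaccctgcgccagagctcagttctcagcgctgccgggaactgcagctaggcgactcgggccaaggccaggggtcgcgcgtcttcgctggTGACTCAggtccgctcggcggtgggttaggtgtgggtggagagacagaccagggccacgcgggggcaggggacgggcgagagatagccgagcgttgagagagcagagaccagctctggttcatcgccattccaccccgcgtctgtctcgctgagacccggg

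The other 6 of the 14 have varied roles. Lmcd1, a LIM-domain protein that acts as a transcriptional co-regulator in heart and smooth muscle, was at 9.16, 10.24 and 9.61 with vehicle, at 7.69, 8.57, 8.13 and 8.03 with SAG, and at 8.01, 8.36 and 8.17 with cyclopamine. No treated array reached the lowest vehicle array. It fell by 1.57 ± 0.26 with SAG (adjusted p = 0.0228) and by 1.49 ± 0.28 with cyclopamine (adjusted p = 0.0129). Minar2, a membrane protein that associates with NOTCH2, was at 7.27, 7.74 and 7.38 with vehicle, at 6.01, 5.97, 5.51 and 6.19 with SAG, and at 6.67, 5.94 and 6.22 with cyclopamine. Its groups did not overlap, and the changes were -1.54 ± 0.21 (adjusted p = 0.0106) and -1.19 ± 0.23 (adjusted p = 0.0153). Sez6l, a transmembrane protein known from neurons, was at 8.42, 8.47 and 7.83 with vehicle, at 7.44, 7.08, 6.66 and 7.23 with SAG, and at 6.52, 6.64 and 6.49 with cyclopamine. All treated arrays were below vehicle and all cyclopamine arrays below all SAG arrays. Sez6l fell by 1.14 ± 0.21 (adjusted p = 0.0360) and by 1.69 ± 0.22 (adjusted p = 0.00262).

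Ahr, the ligand-activated transcription factor that senses dioxins and related aromatic compounds, was at 9.85, 10.31 and 9.72 with vehicle, at 8.27, 9.05, 8.70 and 8.40 with SAG, and at 9.07, 9.23 and 8.59 with cyclopamine. The highest treated array, at 9.23, was below the lowest vehicle array. Ahr fell by 1.36 ± 0.23 with SAG (adjusted p = 0.0254) and by 0.99 ± 0.24 with cyclopamine (adjusted p = 0.0430), and its average had the weakest adjusted p of the 50, 0.0495. Cmtm5, a tetraspanning membrane protein of the CMTM family, fell by 1.00 ± 0.16 (adjusted p = 0.0211) and by 1.17 ± 0.17 (adjusted p = 0.00455), from 8.53 to 9.04 on the vehicle arrays to between 7.41 and 7.95 on the treated arrays. Lrrc75b had the smallest changes of the 14, -0.87 ± 0.13 with SAG (1.83-fold, adjusted p = 0.0150) and -0.68 ± 0.14 with cyclopamine (1.60-fold, adjusted p = 0.0202), with vehicle arrays between 7.92 and 8.05 and treated arrays between 6.83 and 7.34.

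**Figure D2:**
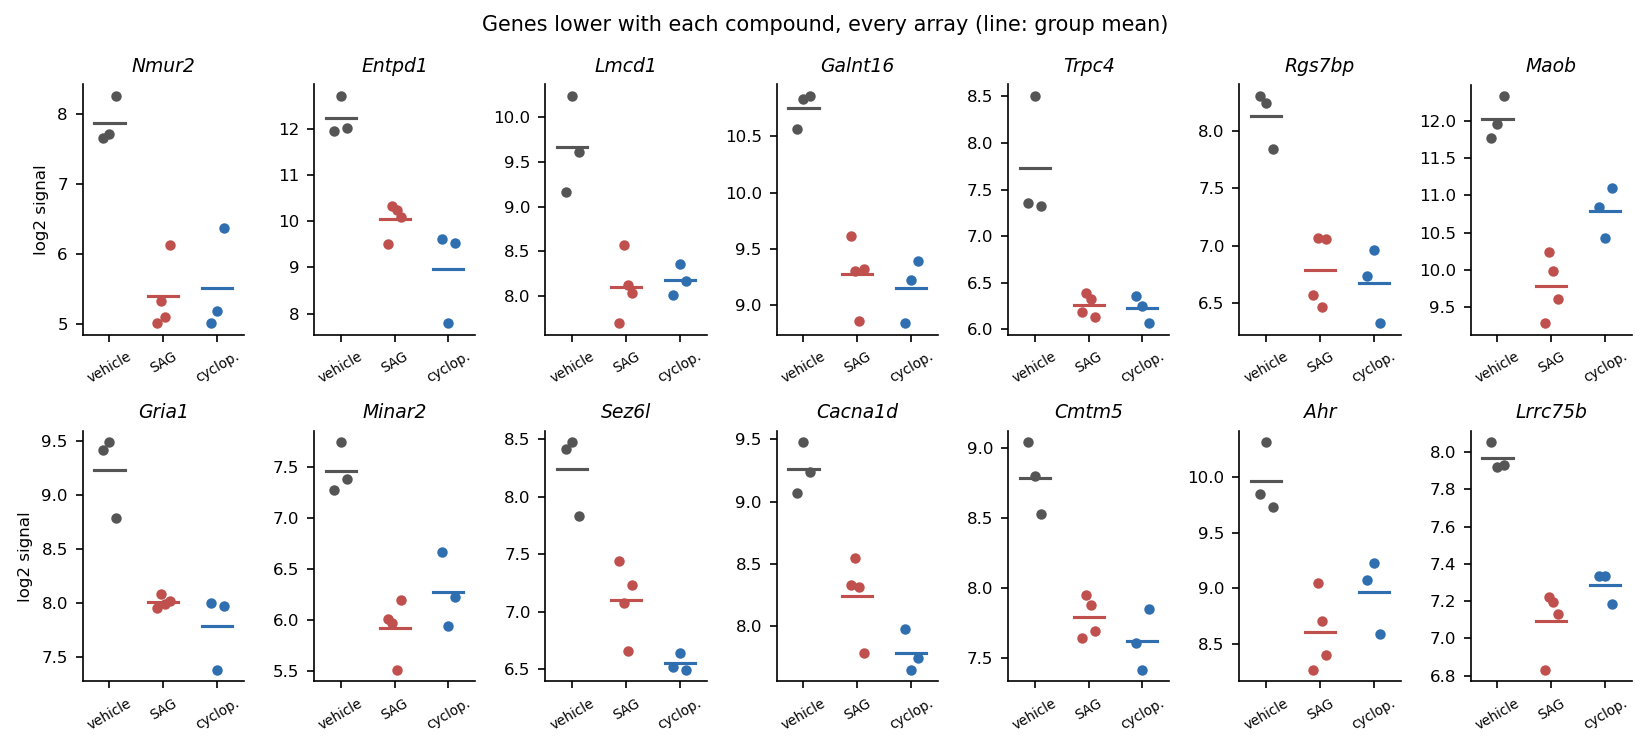
Log2 signal of the 14 genes that fell with each compound, a panel a gene, with a point for each of the 3 vehicle, 4 SAG and 3 cyclopamine arrays and a bar at each group mean. In every panel all treated arrays lie below all vehicle arrays, which follows in part from how the genes were chosen.

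How far these calls depended on single arrays was read by leaving out each array in turn. Both compounds are set against the same 3 vehicle arrays, so omitting a vehicle array touches both calls. In none of the 14 genes did both compounds' calls hold through all 10 omissions. They held in 9 of 10 for Galnt16 and Minar2, where vehicle replicate 2 ended them (SAG adjusted p = 0.0509 for Galnt16 and 0.0635 for Minar2, and cyclopamine adjusted p = 0.0617 for Minar2), and in 8 for Nmur2, where the SAG call ended without vehicle replicate 2 or 3 (adjusted p from 0.0531 to 0.0546). The cyclopamine calls of Nmur2, Entpd1, Lmcd1, Galnt16, Trpc4, Rgs7bp, Gria1, Sez6l, Cacna1d and Cmtm5 held through every omission. That of Maob ended without any vehicle array or cyclopamine replicate 1 or 2 (adjusted p from 0.0506 to 0.0851), that of Lrrc75b without any vehicle array or cyclopamine replicate 3 (0.0554 to 0.0789), and that of Ahr when any vehicle array, SAG replicates 3 and 4 and cyclopamine replicates 1 and 3 were each omitted (0.0571 to 0.149).

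The SAG call held through every omission only for Maob among the 14. Without vehicle replicates, it ended for Lrrc75b (any of the 3, adjusted p from 0.0531 to 0.0748), and omission of vehicle replicates 1 and 2 and of SAG replicate 3, each in turn, ended it for Rgs7bp (0.0602 to 0.117). For Trpc4 it ended without any SAG array (0.0611 to 0.0888), for Lmcd1 with vehicle replicates 2 and 3 and SAG replicates 3 and 4 omitted in turn (0.0691 to 0.101), and for Cmtm5 with vehicle replicates 1 and 2 and SAG replicates 3 and 4 omitted in turn (0.0595 to 0.115). Entpd1 lost it without any vehicle or SAG array (0.0743 to 0.220), Gria1 with any SAG array or vehicle replicates 1 and 2 omitted in turn (0.0519 to 0.141), and Ahr without any vehicle array or SAG replicate 1, 3 or 4 (0.0521 to 0.145). Sez6l lost it when SAG replicates 2, 3 and 4, cyclopamine replicate 1 or vehicle replicates 1 and 2 were omitted in turn (0.0532 to 0.201), and Cacna1d without any vehicle array, SAG replicate 1, 3 or 4, or cyclopamine replicate 3 (0.0539 to 0.209). The count of genes that fell or rose with each compound ranged from 1 without vehicle replicate 2 to 27 without cyclopamine replicate 2, and was 5 without vehicle replicate 1, 5 without SAG replicate 3 and 6 without SAG replicate 4.

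The average call was tested in the same way for all 50 genes. The vehicle mean has more weight in the average contrast than either compound's mean. Omitting a vehicle array therefore costs more precision by construction, and more calls lost that way do not single out the vehicle arrays. The average kept its sign in all 50 through every omission, and its call through every omission in 6: Myh11, Cnn1, Myl9, Tgfb1i1, Acta2 and Nlgn3. Leaving out vehicle replicate 2 ended 42 of the 50 calls, vehicle replicate 1 ended 36 and vehicle replicate 3 ended 33, whereas a SAG array ended 5 to 16 and a cyclopamine array 1 to 14. Omitting a vehicle array ended 44 calls in all, and 26 of these were lost only in that way. Galnt16, Aff2 and Hspb7 lost the call only without vehicle replicate 2 (adjusted p from 0.0754 to 0.0976) and Tspan18 only without vehicle replicate 1 (0.0517). Rgs7bp, Gria1, Sez6l, Cmtm5 and Lat2 lost it without vehicle replicate 1 or 2 (0.0799 to 0.129), and Synpo2, Actg2, Maob and Dio3 without vehicle replicate 2 or 3 (0.0554 to 0.129). Any vehicle array ended it for Nmur2, Entpd1, Rbm24, Minar2, Rasd2, Klhl38, Cacna1d, Dpp6, Calcrl, Fbxo32, Ndp, Lamc3 and Penk (0.0501 to 0.151).

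For the other 18 genes a treated array could end the average call too. It ended for Trpc4 when SAG replicates 3 and 4, cyclopamine replicate 3 and vehicle replicate 1 were each omitted (0.0536 to 0.0664), and for Heyl when SAG replicate 4, cyclopamine replicate 3 and vehicle replicates 1 and 2 were (0.0517 to 0.203). Lmcd1 lost it when SAG replicates 3 and 4, cyclopamine replicates 1 and 3 and vehicle replicates 2 and 3 were (0.0517 to 0.129). The remaining 15 lost it without any vehicle array and also without a treated array: Lrrc75b without SAG replicate 4 (0.0515 to 0.137 over all its losses), Col4a6 without SAG replicate 1 or cyclopamine replicate 3 (0.0533 to 0.211), Nr4a3 without SAG replicate 3 or 4 or cyclopamine replicate 1 (0.0501 to 0.142), and Fez1 without SAG replicate 4 or cyclopamine replicate 1 or 3 (0.0545 to 0.211). SAG replicate 1, 3 or 4 or cyclopamine replicate 1 ended it for Cap2 and Lin7a (0.0609 to 0.212), and these or cyclopamine replicate 3 for Brinp3, Ahr and Frem1 (0.0517 to 0.301). SAG replicate 2, 3 or 4 or cyclopamine replicate 1 ended it for Trmt9b (0.0678 to 0.279), these or cyclopamine replicate 3 for Pianp (0.0604 to 0.208), and SAG replicate 2 or 3 or cyclopamine replicate 1 or 3 for Btbd35f13 (0.0569 to 0.267). SAG replicate 3 or 4 or any cyclopamine array ended it for Fat4 (0.0501 to 0.221), any SAG array or cyclopamine replicate 1 for Cubn (0.0516 to 0.211), and any SAG array or cyclopamine replicate 1 or 3 for Pdgfd (0.0609 to 0.208). The number of same-side calls was 16, 7 and 23 without vehicle replicates 1, 2 and 3, and 90 without cyclopamine replicate 2, of which 49 were among the 50. The number of all probe sets past the threshold for the average was 19, 9 and 28 without vehicle replicates 1, 2 and 3, 46 without SAG replicate 4 and 138 without cyclopamine replicate 2.

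**Figure D3:**
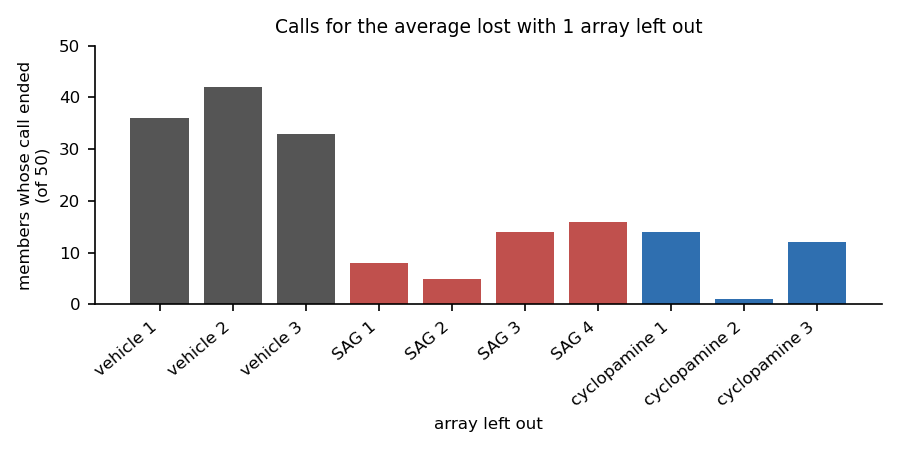
Number of the 50 same-side calls that ended when each array named on the axis was left out (bars), by treatment group. The bars of the 3 vehicle arrays stand at 33 to 42, those of the 4 SAG arrays at 5 to 16 and those of the 3 cyclopamine arrays at 1 to 14. The vehicle mean has the most weight in the average contrast, so higher vehicle bars are in part built in.

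Brinp3 and Trmt9b passed the test with SAG alone. Brinp3, a protein studied mainly in the nervous system, was at 9.03, 10.04 and 10.04 with vehicle, at 6.90, 7.81, 7.58 and 6.86 with SAG, and at 7.97, 8.78 and 8.89 with cyclopamine. Every SAG array lay below every cyclopamine array, and these below vehicle. It fell by 2.41 ± 0.34 with SAG (5.33-fold, adjusted p = 0.0113), the change with cyclopamine was -1.16 ± 0.36 (adjusted p = 0.10), and the compounds differed by -1.26 (95% interval from -2.00 to -0.51, adjusted p = 0.0350). Trmt9b, a tRNA methyltransferase-like protein named after its values were seen, fell by 1.51 ± 0.23 with SAG (adjusted p = 0.0150), with a change of -0.88 ± 0.24 with cyclopamine (adjusted p = 0.0636) and a difference between the compounds of -0.63 (95% interval from -1.12 to -0.13, adjusted p = 0.111).

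Contractile and actin-binding genes included Actg2 and Cnn1, the largest average changes of the 50, and none of the 8 genes in this group passed the test with SAG. Actg2, the enteric smooth-muscle actin, was at 11.23, 13.07 and 12.34 with vehicle, at 12.29, 10.67, 10.93 and 10.02 with SAG, and at 6.78, 7.19 and 6.06 with cyclopamine. SAG replicate 1 lay within the vehicle range, the other SAG arrays below it, and the cyclopamine arrays far below both. The average fell by 3.39 ± 0.49 (adjusted p = 0.0166), from -1.24 ± 0.54 with SAG (adjusted p = 0.439) and -5.54 ± 0.57 with cyclopamine (46.5-fold, adjusted p = 0.000641). Cnn1, the actin-binding calponin of differentiated smooth muscle, was at 11.55, 12.02 and 12.09 with vehicle, at 11.15, 11.42, 11.47 and 11.08 with SAG, and at 6.68, 7.18 and 6.67 with cyclopamine. Its SAG arrays were all below vehicle, by little, and its cyclopamine arrays by more than 4 log2 units. The average fell by 2.82 ± 0.17 (adjusted p = 0.000118), from -0.61 ± 0.19 (adjusted p = 0.227) and -5.04 ± 0.20 (32.9-fold, adjusted p = 1.56e-06).

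Synpo2, an actin-bundling protein of muscle, was the contractile gene nearest to equal changes. It was at 10.71, 11.46 and 11.17 with vehicle, at 10.30, 9.60, 9.53 and 9.94 with SAG, and at 8.96, 8.77 and 9.51 with cyclopamine, and all treated arrays were below vehicle. Its change was -1.27 ± 0.25 with SAG (adjusted p = 0.0506) and -2.03 ± 0.27 with cyclopamine (adjusted p = 0.00265). Myh11, smooth-muscle myosin heavy chain, changed by -0.88 ± 0.26 with SAG (adjusted p = 0.195) and -3.62 ± 0.28 with cyclopamine (adjusted p = 8.14e-05). Acta2, smooth-muscle alpha-actin, stood at 16.99 to 17.12 with vehicle, 16.71 to 17.18 with SAG and 14.66 to 14.76 with cyclopamine. SAG and vehicle arrays overlapped fully, and its change with SAG was -0.04 ± 0.13 (adjusted p = 0.941), a sign that turned to 0.05 with arrays centred on their medians, so Acta2 was same-side in name alone. Myl9, the regulatory light chain of smooth-muscle myosin, changed by -0.30 ± 0.16 with SAG (adjusted p = 0.541) and by -2.99 ± 0.17 with cyclopamine (adjusted p = 9.26e-06), and SAG arrays overlapped vehicle. Of the 33 same-side genes with a promoter to search, Myl9 and Lmcd1 held the CArG-box letters of the serum response factor, searched on both strands. They occurred in 2 of 48 promoters of these genes (4.17%) and in 1.63% of all promoters. Actg2, Myh11 and Tgfb1i1 were not among the 33. The upstream bases of Myl9 and Lmcd1 are shown with the match in capitals (GRCm38.p6, plus strand, Myl9 at chr2:156775214-156775463 with the match starting 161 bases before the start, Lmcd1 at chr6:112273508-112273757 with it starting 215 bases before the start):

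Myl9: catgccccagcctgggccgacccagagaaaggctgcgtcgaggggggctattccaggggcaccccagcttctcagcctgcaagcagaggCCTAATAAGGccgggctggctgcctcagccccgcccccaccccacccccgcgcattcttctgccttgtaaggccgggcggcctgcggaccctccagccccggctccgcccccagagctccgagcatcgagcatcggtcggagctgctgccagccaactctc

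Lmcd1: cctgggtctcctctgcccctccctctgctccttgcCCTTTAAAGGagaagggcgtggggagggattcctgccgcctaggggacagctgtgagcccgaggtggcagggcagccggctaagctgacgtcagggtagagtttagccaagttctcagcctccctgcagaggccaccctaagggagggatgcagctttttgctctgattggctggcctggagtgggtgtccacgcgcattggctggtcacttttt

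The smooth muscle marker list showed the same contrast of the compounds. Of its 13 measured genes, 7 fell for the average and none rose (against 58 and 9 of 19505 genes in all): Actg2, Cnn1, Myh11, Synpo2, Myl9 and Acta2 on the same side, and Myocd, the cardiac and smooth-muscle transcriptional co-activator, on opposite sides. The list holds genes already described in these data, so the count is no independent evidence. None of the 13 passed with SAG and 10 fell with cyclopamine, against 55 and 604 that fell of 19505 genes in all. List medians were -0.37 with SAG and -2.32 with cyclopamine. The mean of the list, set to the vehicle mean, was between -0.29 and 0.17 on the vehicle arrays, between -0.55 and -0.37 on the SAG arrays and between -2.72 and -2.17 on the cyclopamine arrays. Groups did not overlap. Tagln, which was not past the threshold for the average (-1.39, adjusted p = 0.118), had SAG arrays between 14.14 and 14.62 against 13.88 to 14.63 with vehicle. Without vehicle replicate 2, or without vehicle replicate 3, 4 of the 13 fell.

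**Figure D4:**
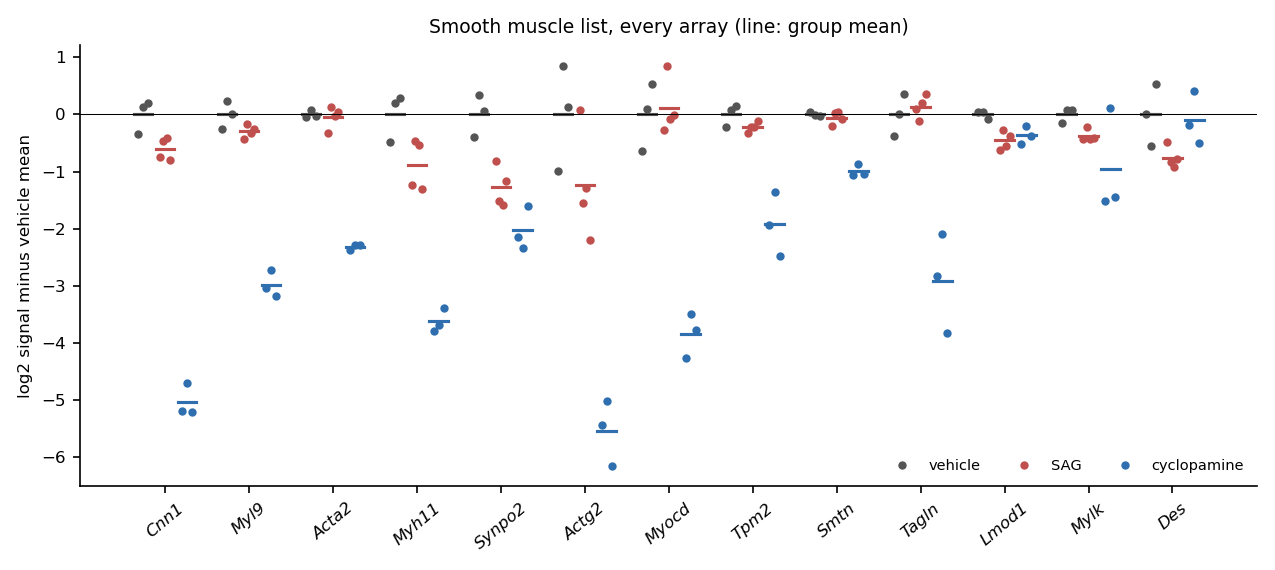
Log2 signal minus the vehicle mean for each of the 13 measured smooth muscle markers on every array, with points for the 3 vehicle, 4 SAG and 3 cyclopamine arrays and a line at each group mean. Cyclopamine points lie below all vehicle points for most markers, while SAG points of Acta2, Myocd, Tagln and Smtn lie around the vehicle mean.

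The 50 genes also held 4 known from muscle that are not on that list: Lmcd1, described above, Rbm24, Hspb7 and Fbxo32. This grouping was made after the calls were known. The skeletal muscle marker list had 0 of 7 genes past the threshold and a median of 0.10. Rbm24, an RNA-binding splicing regulator of muscle, was at 7.76, 8.16 and 8.14 with vehicle, at 6.47, 7.24, 6.81 and 6.76 with SAG, and at 5.88, 4.65 and 5.86 with cyclopamine. The groups did not overlap, with SAG in between. Its average fell by 1.88 ± 0.27 (adjusted p = 0.0156), from -1.20 ± 0.29 with SAG (adjusted p = 0.115) and -2.55 ± 0.31 with cyclopamine (adjusted p = 0.00203). The rest of the 50 are named here to account for all of them, after their values were seen. Tgfb1i1, a focal-adhesion adaptor, Hspb7, a small heat-shock protein of muscle, and Fbxo32, the muscle ubiquitin-ligase subunit atrogin-1, had cyclopamine changes of -2.49, -2.85 and -2.27 and SAG changes of -0.25, -0.20 and -0.52, none of the latter past the threshold. Cap2, a regulator of actin turnover, changed by -1.10 with SAG and -2.23 with cyclopamine. Cap2 and Tgfb1i1 were counted in the contractile and actin-binding group.

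Ordered by role, the 47 genes that fell held 10 for receptors, channels and their partners, 8 contractile and actin-binding, 5 enzymes, and 4 each that were muscle-associated, known mainly from neurons, for matrix and adhesion, and for transcription, beside 3 secreted signals and 5 others. The receptor and channel group had a median change of -1.08 with SAG and -1.92 with cyclopamine. It included Dpp6, an auxiliary subunit of potassium channels (-1.02 and -2.34), Calcrl, the receptor for CGRP and adrenomedullin (-0.71 and -2.44), Rasd2, a small GTPase (-1.14 and -2.77), and the synaptic proteins Lin7a and Nlgn3. The enzymes had medians of -1.51 and -1.60, although single enzymes went both ways between the compounds: Maob was lower with SAG and Dio3, the deiodinase that inactivates thyroid hormone (-0.79 and -1.79), lower with cyclopamine, both past the threshold. Trmt9b was the other enzyme. The contractile group had medians of -0.75 and -2.74. For Nlgn3, a postsynaptic adhesion protein, the SAG change was -0.00 ± 0.15 (adjusted p = 0.999) against -2.94 ± 0.16 with cyclopamine (adjusted p = 7.83e-06), and it turned to 0.09 with centred arrays, so that its place among the same-side genes rests on no measurable change with SAG.

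Matrix and adhesion genes were Col4a6, a basement-membrane collagen chain, Lamc3, a laminin chain, Frem1, a basement-membrane-associated matrix protein, and the giant protocadherin Fat4. Col4a6 was nearest to equal changes, -0.90 ± 0.18 with SAG (adjusted p = 0.0517) and -1.12 ± 0.19 with cyclopamine (adjusted p = 0.00809), and its vehicle arrays, 10.03 to 10.45, lay above all treated arrays, 8.92 to 9.60. The transcription group held Ahr, Nr4a3, an orphan nuclear receptor induced by many signals (-0.89 and -3.38), Heyl, a Notch target (-0.29 and -1.93), and Aff2, a nuclear protein (-0.73 and -1.50). Among secreted signals, the changes with SAG were small and none passed: Ndp, the Frizzled ligand norrin, changed by -0.45 with SAG and -2.35 with cyclopamine, Penk, the enkephalin precursor, by -0.19 and -1.44, and Pdgfd, a platelet-derived growth factor, by -0.05 and -1.70. Pdgfd's SAG change turned to 0.04 with centred arrays. The neuronal group comprised Sez6l, Brinp3, Fez1 (-0.47 and -1.62) and Pianp (-0.12 and -1.42), and the others were Minar2, Cmtm5, Lrrc75b, Klhl38 (-1.02 and -2.30) and Tspan18 (-0.24 and -1.78).

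The 3 same-side genes that rose did so with no overlap between treated and vehicle arrays. Lat2, a transmembrane adaptor of immune-cell signalling, was at 5.97, 5.98 and 6.23 with vehicle, at 6.48, 6.57, 6.60 and 6.62 with SAG, and at 7.38, 7.28 and 7.04 with cyclopamine. The 3 groups were stepped, with SAG in between, and the average rose by 0.84 ± 0.12 (adjusted p = 0.0146). Cubn, the endocytic receptor cubilin, was at 4.78, 4.71 and 4.68 with vehicle, 5.07, 5.27, 5.20 and 5.06 with SAG, and 5.81, 5.77 and 5.47 with cyclopamine, again in steps, and its average rose by 0.69 ± 0.11 (adjusted p = 0.0341). Btbd35f13, a BTB-domain gene, was at 4.12, 3.85 and 3.81 with vehicle, 4.51, 4.71, 4.52 and 5.03 with SAG, and 4.83, 4.85 and 4.72 with cyclopamine, and rose by 0.82 ± 0.14 (adjusted p = 0.0388). Its treated groups overlapped. With SAG alone none of the 3 passed (adjusted p = 0.132, 0.196 and 0.0519 in that order), and with cyclopamine all did (0.00156, 0.00370 and 0.0131). Cubn and Btbd35f13 were the only members of the 50 whose mean over all arrays lay below 5.19, the lower quartile of probe sets, and both left the tested set when the dimmest 25% of probe sets were dropped. The number of same-side rises was 0 without vehicle replicate 2, 1 without vehicle replicate 3 or SAG replicate 2, 14 without cyclopamine replicate 2 and 10 without cyclopamine replicate 3. The macrophage marker list had no measured gene of 12 past the threshold and list means of -0.15 to 0.29 with vehicle, -0.32 to 0.46 with SAG and -0.58 to 0.95 with cyclopamine. Its part in the change of Lat2 was not tested.

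The compounds differed from each other in 33 of the 50 same-side genes, against 2518 of all probe sets (11.3%, with SAG above cyclopamine in 5.42% and below it in 5.92%). A large change with 1 compound can carry the average by which the 50 were chosen, so the count of 33 follows in part from that choice. In 29 genes cyclopamine lay further below vehicle, in Maob and Brinp3 SAG lay further below, and in Lat2 and Cubn cyclopamine lay further above. The other 17 did not pass, and in 12 of these the 95% interval of the difference included 0. Among the 14 genes that fell with each compound the interval included 0 in 10 and excluded it in 4, Entpd1 (1.07, from 0.17 to 1.97), Sez6l (0.55, from 0.10 to 1.01), Cacna1d (0.45, from 0.04 to 0.87) and Maob, and half-widths ran from 0.29 to 0.90 log2 units. Small differences could thus be missed with this number of arrays. Those of Entpd1, Sez6l and Cacna1d did not pass limma's test after adjustment (adjusted p = 0.133, 0.126 and 0.166), although their intervals excluded 0. With vehicle replicates 1, 2 and 3 left out in turn, 13, 6 and 11 same-side genes differed between the compounds, and without cyclopamine replicate 2, 53 did, as the set of same-side calls itself changed. Over the 50, the larger change was with cyclopamine in 42 and with SAG in 8. In 18 the smaller change was at least 50% of the larger, and in 16 it was under 25%.

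**Figure D5:**
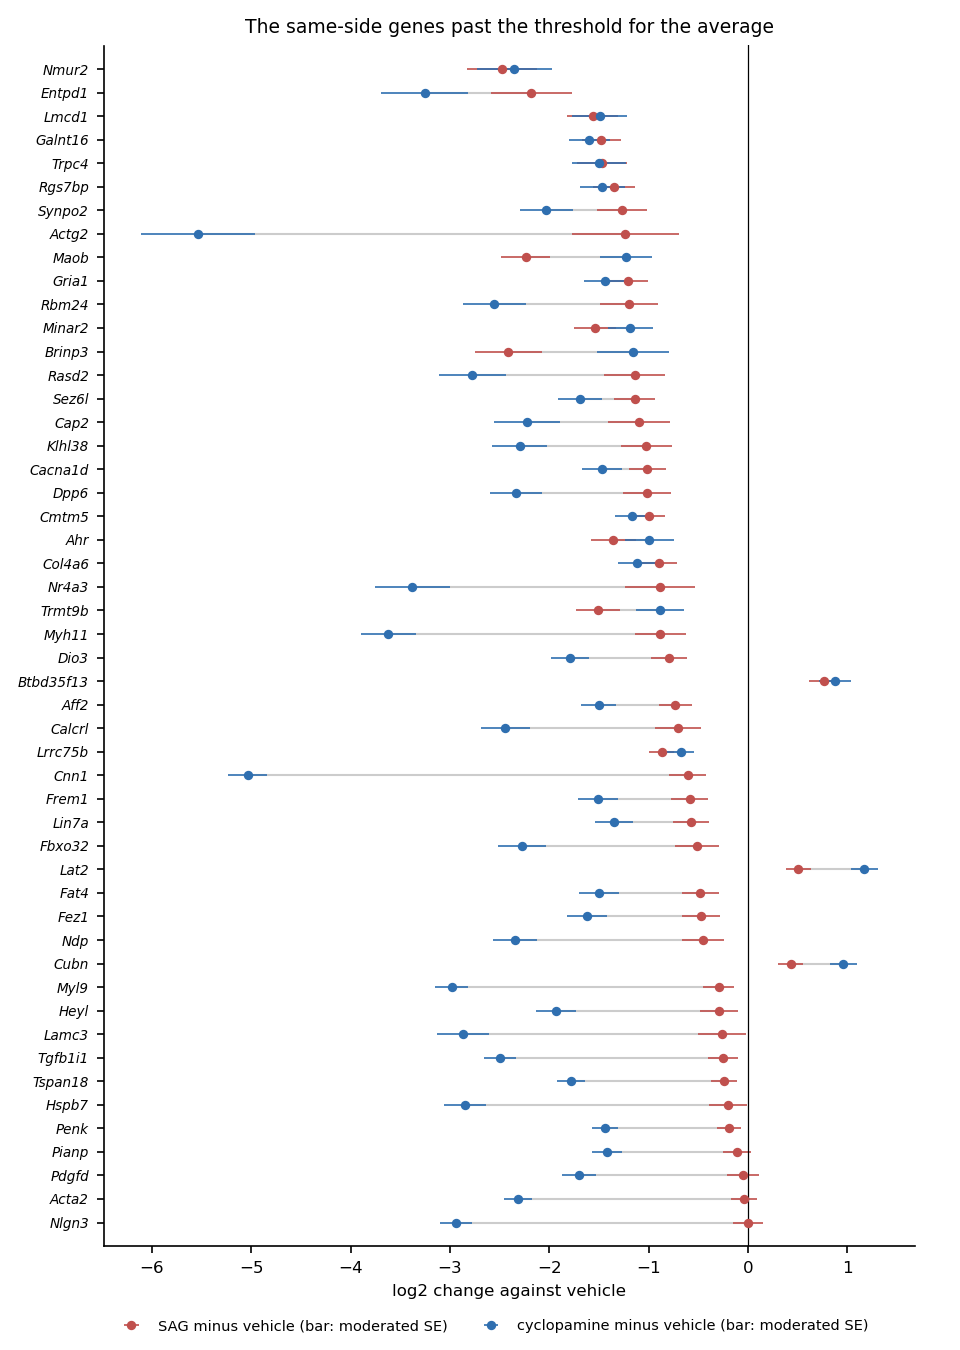
Changes with SAG (red) and with cyclopamine (blue) against vehicle in log2 units for the 50 same-side genes, ordered by the smaller of the 2 changes, with bars for the moderated standard error and a grey line joining the compounds. Among the upper genes the markers lie close together in some and far apart in others, such as Actg2 (-1.24 with SAG and -5.54 with cyclopamine). In the lowest genes SAG changes lie near 0 and cyclopamine changes run from -1.42 to -2.99.

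In 17 named genes the average passed although the compounds lay on opposite sides of vehicle, 11 lower and 6 higher. Gli1 (average -2.71, adjusted p = 0.00220) and Ptch1 (-1.28, adjusted p = 0.0272) were among the 11, since their falls with cyclopamine outweighed their rises with SAG, while Hhip was not (-0.70, adjusted p = 0.432). The others that were lower were Atp8a2, Crabp1, Fat3, Kcnd3, Msrb3, Myocd, Pltp, Tcf21 and Wfdc1, and the 6 higher were Fgf5, Fxyd2, Lgals3, Mical2, Sult1d1 and Tiam1. Crabp1, a retinoic-acid-binding protein, alone fell past the threshold with SAG (-2.76) and rose past it with cyclopamine (0.84). Fxyd2, Lgals3 and Sult1d1 also lay below vehicle with SAG (-0.18, -0.16 and -0.00), but did not pass there. With cyclopamine they rose by 3.61, 3.35 and 3.56. Of the 3 unnamed probe sets among the 70, 1 was same-side.

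At the threshold itself, the last same-side genes inside were Ahr (adjusted p = 0.0495), Fat4 (0.0413) and Brinp3, Trmt9b and Lin7a (tied at 0.0409), and the nearest outside were Plpp4 (0.0533), Cd83 (0.0544) and Map3k20 (0.0558), all lower than vehicle.

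Other pathway lists had few or no members past the threshold for the average. Over all 19505 genes, 11389 were same-side, 6015 of them higher and 5374 lower. Of 13 hedgehog pathway genes, Gli1 and Ptch1 fell, 4 were same-side and none of those passed, and Bcl2 had the lowest same-side adjusted p (-0.78, adjusted p = 0.118). In the Notch pathway, which controls cell fate between neighbouring cells, 1 of 13 genes fell, Heyl, and 10 were same-side, 7 of them lower. Its targets Hey2 (-1.11, adjusted p = 0.0901) and Nrarp (-1.07, adjusted p = 0.181) and the ligand Jag1 (-0.52, adjusted p = 0.248) did not pass. Among Wnt targets and antagonists none of 13 passed for the average, 7 were same-side and 6 of these were lower, with a list median of -0.41. The secreted antagonist Sfrp2 was at 14.21, 15.02 and 13.95 with vehicle, at 12.07, 12.81, 12.79 and 12.94 with SAG, and at 14.12, 11.83 and 13.76 with cyclopamine. All SAG arrays lay below vehicle, but cyclopamine replicate 1 lay within the vehicle range, replicate 3 just below it and replicate 2 far below it (average -1.45, adjusted p = 0.247). Apcdd1, a membrane inhibitor of Wnt (-1.03, adjusted p = 0.156), and the secreted antagonist Wif1 (-1.25, adjusted p = 0.267) did not pass either, nor did the transcription factor Lef1 (-0.54, adjusted p = 0.310), whose SAG change of -0.00 turned to 0.09 with centred arrays.

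Cell cycle genes were 13 of 18 same-side (against 11389 of 19505 genes in all), all 13 lower, yet none passed for the average or with SAG. Of the 18, 5 fell with cyclopamine, against 604 of 19505 genes in all. The list median was -0.32 for the average, -0.09 with SAG and -0.55 with cyclopamine. The replication helicase subunits Mcm5 (-0.61, adjusted p = 0.104) and Mcm6 (-0.37, adjusted p = 0.214), cyclin Ccna2 (-0.94, adjusted p = 0.165) and the transcription factor E2f1 (-0.42, adjusted p = 0.248, on opposite sides) had the lowest p. Genes of the xenobiotic response, among them targets of AHR, were 9 of 11 same-side with none past the threshold for the average. Tiparp (-0.38, adjusted p = 0.385) and Cyp1b1 (-0.39, adjusted p = 0.492), both AHR targets, were lower, Cyp2b10 (1.10, adjusted p = 0.404) and Abcc2 (0.29, adjusted p = 0.569) higher, and Cyp1a1, the classic AHR target, differed by 0.12 (adjusted p = 0.790). With cyclopamine alone Tiparp fell (-0.71, adjusted p = 0.0447) and the transporter Abcc3 rose (0.88, adjusted p = 0.0469), and no gene of the list passed with SAG.

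Since several of the 50 genes are known from neurons, markers of neurons and glia were read beside them. None of 8 measured markers passed, 7 were same-side and lower (against 5374 of 19505 genes in all), and the median was -0.64. The list mean ran from -0.65 to 0.39 with vehicle, from -1.47 to -0.05 with SAG and from -1.27 to 0.39 with cyclopamine, so the groups overlapped. Tubb3, the neuronal tubulin, was at 10.88, 10.95 and 9.13 with vehicle, at 10.20, 9.50, 9.02 and 8.33 with SAG, and at 10.58, 7.93 and 7.52 with cyclopamine, and did not pass (-1.35, adjusted p = 0.502), and neither did Elavl3 (-0.67, adjusted p = 0.691), Stmn2 (-1.28, adjusted p = 0.601) or Prph (-0.91, adjusted p = 0.709). The part of nerve cells in the falls of Gria1, Sez6l and Brinp3 was not tested. Duct epithelium markers had 1 same-side gene of 14 and none past the threshold, with list means of -0.46 to 0.54 with vehicle, -1.35 to -0.82 with SAG and 0.77 to 1.49 with cyclopamine. Mesenchyme markers were 3 of 13 same-side, with Tcf21 falling for the average from opposite sides. Of the 13, 7 fell with cyclopamine and 0 with SAG, against 604 and 55 of 19505 genes in all. The list mean ran from -0.07 to 0.07 with vehicle, from 0.14 to 0.35 with SAG and from -1.18 to -0.96 with cyclopamine. The part of mesenchyme in the falls of the contractile and other genes was not tested.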

How the data were processed

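Total RNA (100 ng a sample, RNA integrity number of at least 7, per the labels' protocols) from cultured ducts was hybridised to 10 Affymetrix arrays. The deposited log2 signal values, a value per probe set and array, were used as the authors gave them. The log base is not stated and was taken as 2 from the range of the values, so every fold rests on that reading. The software, background correction, normalization and genome build behind them stay unknown (not given in the sources used here), and scanner files were not used here. Array number limits the precision. Gene symbols came from the platform's annotation table, with 19572 probe sets matched to 1 symbol, 2634 to none and 0 to several. 0 symbols needed updating.

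All 10 arrays entered a single limma fit (version 3.58.1, R 4.3.3) with a mean per group and moderated variances (residual df 7, prior df 3.70), two-sided, adjusted over all 22206 probe sets by Benjamini-Hochberg, threshold 0.05. The average, each compound against vehicle and the compounds against each other were contrasts of this fit. Intervals are at 95%. The code was tested on simulated data.

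Members and the 32 gene lists (388 of 428 genes measured, a gene's probe set of highest mean) were chosen with earlier results of these data known. Genes were named by a rule: the pathway targets Gli1, Ptch1 and Hhip, same-side calls with no array overlap, up to 12 in each direction by the smaller of the 2 changes, the 4 largest average changes in each direction, up to 10 genes called with each compound, up to 4 genes a described list by p, and genes beside the threshold. Genes outside it are said to be so, apart from Tagln, Smtn, Cyp1a1, Abcc3 and most genes named for lying on opposite sides of vehicle, which lie outside it as well. Promoters, 250 bases before to 50 after each start, came from RefSeq (GRCm38.p6) and matched 33 of the 50 genes. The CArG motif was added after the contractile genes were seen. Other letters searched were NRF2 (14.6% of the 48 promoters of these genes against 12.4% of all), HIF (10.4% against 19.6%), CRE (4.17% against 1.79%) and TCF/LEF (4.17% against 3.73%). The E-box (2.08% against 7.15%) and ATF4 letters (0.0% against 0.895%) were searched too. Alternatives changed the normalization, filter, variance model, threshold, block or arrays used; a fit without both SAG replicate 1 and cyclopamine replicate 2 was added after the values were seen.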

Additional observations from a re-analysis of the deposited data

Results flagged for a closer look

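Among 73 SAG groups of 4 arrays tested for an array far from the others, 1 stood out, and chance alone gives about 5% of such groups. Tgfb1i1, which encodes a focal-adhesion adaptor, was at 12.22 on SAG replicate 4, while the remaining 3 SAG arrays stood between 12.73 and 12.76. Its average call held through the omission of every single array.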

How the results depend on the processing

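Counts are given as probe sets past the threshold for the average, then same-side calls (lower and higher), then genes called with each compound, then same-side genes in which the compounds differed; they were 70, 50 (47 and 3), 14 and 33. Array weights gave 112, 78 (71 and 7), 23 and 47, a threshold of 0.10 gave 129, 91 (78 and 13), 28 and 63, and a threshold of 0.01 gave 12, 9 (9 and 0), 1 and 8. Variances without moderation gave 8, 7 (7 and 0), 0 and 7. Taking the 7 treated arrays as 1 group gave 0, 0 (0 and 0), with 1450 probe sets at an unadjusted p under 0.05 in limma; there the difference between the compounds enters the spread by construction. Without SAG replicate 1 and cyclopamine replicate 2 together the counts were 134, 87 (75 and 12), 30 and 52. With a single array left out they ranged from 9 to 138, from 7 to 90 (7 to 76 and 0 to 14), from 1 to 27 and from 6 to 53, lowest without vehicle replicate 2 and highest without cyclopamine replicate 2. Higher same-side calls alone also moved with centred arrays (6), without the dimmest 25% of probe sets (1) and with an intensity-dependent prior variance (7).

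A replicate block gave 17, 13 (13 and 0), 6 and 9. Correlations of same-numbered deviations ran from -0.19 to 0.24, with 1 of 9 above 0.1. For other numbers they ran from -0.22 to 0.23, with 6 of 24 above 0.1. With so few arrays a group, these values cannot tell whether equal numbers mark paired arrays. Of the 50 same-side calls, 44 were kept after repeated quantile normalization and 41 after centring; centring changed the same-side split at an unadjusted p under 0.05 from 1018 lower and 839 higher to 663 and 1393.

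Signs that reversed were all of changes not past the threshold; ranges cover all omissions of a single array. With SAG, Nlgn3 was at 0.057 after quantile normalization, 0.089 with centred arrays, 0.025 without both arrays named above and -0.054 to 0.028 over omissions. Lef1 was at 0.093, 0.087, 0.19 and -0.12 to 0.19 in that order, and at 0.078 with array weights. With centred arrays Pdgfd was at 0.039 (omissions -0.096 to 0.044), Acta2 at 0.046 (0.050 without both arrays, omissions -0.10 to 0.050) and Tiparp at 0.036 (omissions -0.18 to 0.071). Ccna2 was at 0.022 with the block and at -0.33 to 0.022 over omissions, and Jag1 at -0.18 to 0.027. With cyclopamine, Cyp2b10 was at -0.057 with array weights, -0.17 without both arrays and -0.17 to 0.18 over omissions, and Stmn2 at -0.67 to 0.44. Hhip's average was at 0.048 with the treated arrays as 1 group. The cause of these differences was not tested. By the mean over all arrays, low signal limited 2 of the 50 genes, whose means lay in the lower quartile of probe sets. Single treated arrays of other genes also lay below that quartile of 5.19. These were SAG replicates 1 and 3 and cyclopamine replicates 1 and 2 for Nmur2, and cyclopamine arrays for Klhl38, Rbm24 and Ndp.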

Other observations

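Of the 32 lists, 27 had no member past the threshold for the average, and no list had a member that rose. Among the 27, inflammation genes had the highest median, 0.55 for the average (-0.07 with SAG and 0.42 with cyclopamine), and 5 of 15 were same-side. Their list mean was highest on cyclopamine replicate 2 (2.41). FGF ligands and feedback genes were same-side in 6 of 14, all 6 higher, with a median of 0.29, and genes of cholesterol synthesis and uptake were same-side in 11 of 16, 10 of them higher, with a median of 0.10. Hypoxia and glycolysis genes (3 of 16 same-side), amino acid and endoplasmic reticulum stress genes (5 of 20), heat shock genes (6 of 10) and p53 targets (4 of 11) had medians between -0.08 and 0.21. Against these, the median over all 19505 genes was 0.01, and 11389 of them were same-side, 6015 higher.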
